A study of Mus musculus with 4 samples.

Results

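The cytochrome P450 genes of the mouse were described in a profile of H3K27ac, an acetylation of a lysine of histone H3, in the gastrocnemius, a calf muscle. They were the protein-coding genes of the 19 autosomes with a symbol of the form Cyp, number, letter, number, together with Cyp51, in the GENCODE mouse annotation, release vM21. The rule gave 94 genes of 20807. Genes with a further letter at the end of the symbol, such as Cyp3a41b and Cyp4a12a, fell outside it and are not counted as members. The tissue came from adult females of B6CASTF1/J, an F1 hybrid of C57BL/6J and CAST/EiJ, aged 2 months, and no treatment is given in the labels. All 4 libraries belonged to 1 group: 2 biological replicates, each a pool of 2 tissue samples, with 2 technical replicate libraries per biological replicate. The chromatin of whole muscle was measured, so fewer cells of a type and less acetylation per cell cannot be told apart. The measurements were lists of acetylated regions: 1 for each biological replicate, 1 for both pooled, and a replicated list made from both, which gives the values below unless another list is named. With 1 group there was no contrast between samples, and the replicate 1 and replicate 2 lists show the spread.

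P450 enzymes are haem proteins that insert an oxygen atom into fatty acids, sterols, vitamins and foreign compounds, with electrons passed on by P450 oxidoreductase in the endoplasmic reticulum or by ferredoxin in mitochondria. In the mouse many of them are encoded in tandem clusters, and the enzymes of drug metabolism are best known from hepatocytes. Other members make cholesterol, bile acids, steroid hormones and lipid mediators of vessels, or make and break down active vitamin D and retinoic acid. H3K27ac marks active promoters and enhancers.

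H3K27ac lay at a minority of P450 starts in this muscle. A region lay within 1 kb of an annotated transcript start in 22 of 94 P450 genes (23.4%), against 12927 of all 20807 protein-coding genes (62.1%). Within 5 kb, 23 P450 genes had a region, against 65.8% of all genes. The families of drug metabolism were nearly bare, with 2 of 44 genes (4.55%), against 10 of 28 genes (35.7%) in the sterol, steroid hormone, vitamin and vessel classes together. Of the sterol and bile acid genes 5 of 7 had a region. Counted in single replicates, 19 P450 genes had a region within 1 kb in the replicate 1 list (59.8% of all genes) and 20 in the replicate 2 list (62.0% of all genes). The same 18 P450 genes had one in both (59.5% of all genes). None of the 4 lists held a region within 5 kb of 71 members, among them 41 of the 44 drug metabolism genes.

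Sequence before the starts is printed for members that carry these differences. Promoter sequences are from RefSeq on GRCm38.p6, the assembly also named mm10, where 73 of the 94 members had an entry, and they end at the last base before the RefSeq transcript or are shortened to stay outside annotated exons. Cyp27a1, Cyp26b1 and Cyp2j9 had the highest signal value of the sterol, vitamin and vessel classes, and Cyp2e1 and Cyp3a11 stand for the drug metabolism genes with no region. The stretch of Cyp26b1 lies at its outermost start and was not covered in the replicated, replicate 1 or replicate 2 list. Cyp2r1 was therefore added after the values were seen. Capitals mark CpG dinucleotides.
Cyp27a1 (chr1:74713285-74713534, + strand): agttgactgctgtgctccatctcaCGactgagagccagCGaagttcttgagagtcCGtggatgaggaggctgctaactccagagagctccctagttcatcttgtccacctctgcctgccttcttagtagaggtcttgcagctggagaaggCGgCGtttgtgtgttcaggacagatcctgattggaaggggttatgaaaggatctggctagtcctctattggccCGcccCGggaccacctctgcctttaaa
Cyp2r1 (chr7:114562973-114563222, - strand): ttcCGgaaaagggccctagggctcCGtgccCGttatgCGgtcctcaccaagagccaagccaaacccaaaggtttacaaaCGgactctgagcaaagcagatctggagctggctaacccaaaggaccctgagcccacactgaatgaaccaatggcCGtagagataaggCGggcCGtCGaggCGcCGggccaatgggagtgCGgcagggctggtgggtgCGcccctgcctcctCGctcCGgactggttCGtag
Cyp2j9 (chr4:96591579-96591735, - strand): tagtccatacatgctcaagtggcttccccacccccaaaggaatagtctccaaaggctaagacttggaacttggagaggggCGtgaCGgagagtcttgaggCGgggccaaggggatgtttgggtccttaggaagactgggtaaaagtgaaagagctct
Cyp26b1 (chr6:84593909-84594060, - strand): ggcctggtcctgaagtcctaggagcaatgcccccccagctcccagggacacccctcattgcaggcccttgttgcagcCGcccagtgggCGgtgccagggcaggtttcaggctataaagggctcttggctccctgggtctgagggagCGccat
Cyp2e1 (chr7:140763569-140763738, + strand): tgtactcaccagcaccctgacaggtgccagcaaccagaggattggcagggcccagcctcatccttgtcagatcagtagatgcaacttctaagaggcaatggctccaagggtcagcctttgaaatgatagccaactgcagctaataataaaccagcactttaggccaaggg
Cyp3a11 (chr5:145879965-145880104, - strand): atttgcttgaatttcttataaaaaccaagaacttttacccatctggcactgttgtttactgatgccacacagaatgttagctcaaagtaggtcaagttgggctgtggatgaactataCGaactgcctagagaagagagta
Regions covered every printed base of Cyp27a1, Cyp2r1 and Cyp2j9 in the replicated, replicate 1 and replicate 2 lists, and no base of Cyp26b1, Cyp2e1 or Cyp3a11. Cyp2r1 held 16 CpG in 250 bases, Cyp27a1 7 in 250 and Cyp2j9 3 in 157. Cyp26b1 held 3 in 152 bases, Cyp3a11 1 in 140, and Cyp2e1 none in 170.

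**Figure D1:**
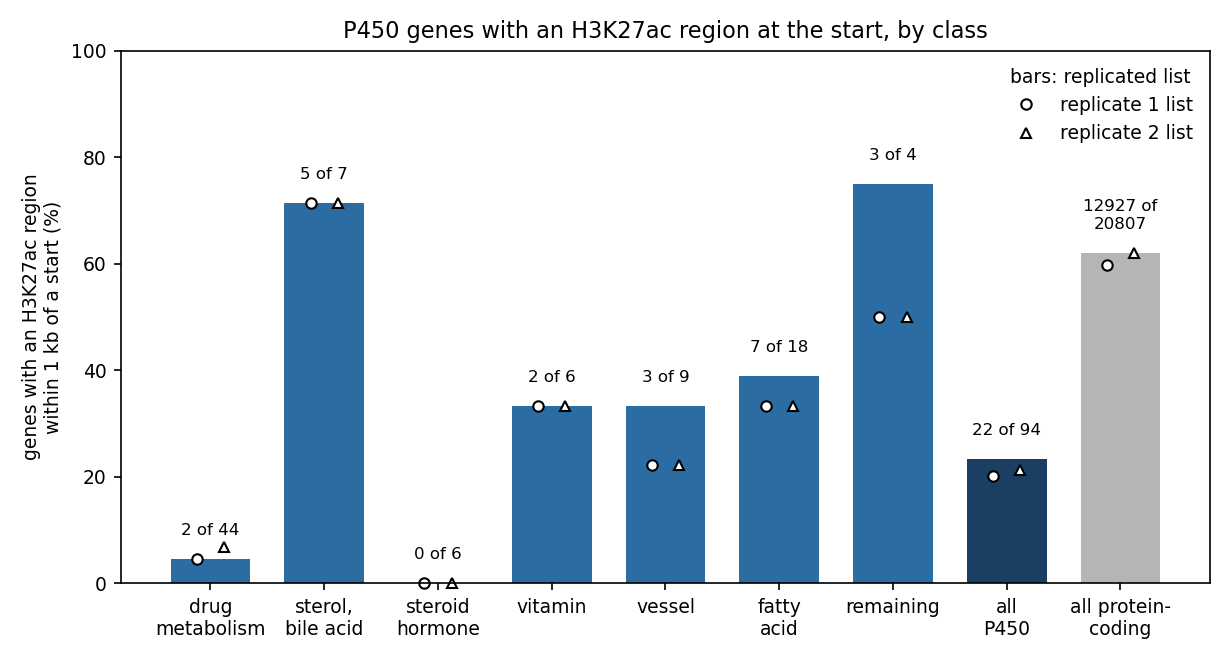
Percentage of genes with an H3K27ac region within 1 kb of a start, by P450 class, for all P450 genes and for all protein-coding genes. Bars give the replicated list, circles the replicate 1 list and triangles the replicate 2 list; the drug metabolism bar stands at 2 of 44 genes and the sterol and bile acid bar at 5 of 7.

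The acetylated genes of drug metabolism were Cyp2d22 and Cyp1a1, with Cyp2f2 beyond 1 kb. Acetylated length is the number of base pairs (bp) covered by regions in the 10000 bp around a start, taken at the start with most. Cyp2d22, a mouse counterpart of the human drug-metabolising enzyme CYP2D6, had 6081 bp, replicate 1 holding 5749 bp and replicate 2 holding 6023 bp. That was the greatest acetylated length of all 94 members by this measure, added over 2 regions. The acetylation ran into the gene, where regions covered 57.4% of the 9.73 kb gene body. Its start region (chr15:82375000-82380388) had a signal value of 36.9, the authors' own value per region, which is used here only to rank regions within a list. The other 7 Cyp2d genes of the same cluster had no region within 5 kb of a start.

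Cyp1a1, which oxidises polycyclic aromatic hydrocarbons and is a classical target of the aryl hydrocarbon receptor, had 2215 bp, replicate 1 holding 1199 bp and replicate 2 holding 2879 bp. In base pairs the replicates lay further apart here than at any other member but Cyp4b1. A single region lay within 1 kb (chr9:57695924-57697026, 1103 bp, signal 5.25), and it spanned 1689 to 587 bp upstream of the shorter annotated transcript. Of its 1103 bp, 812 were covered in replicate 1 and 1092 in replicate 2. The receptor's core motif GCGTG, searched on both strands, matched 10 times in this region. Windows of the same length at the centres of all 82994 autosomal regions had as many in 87 cases (0.105%), with a median of 1. Of 68285 regions over 1 kb from any coding start, 43 (0.0630%) had as many, with a median of 0. The Cyp1a1 region, 587 bp from a start, is not one of that group. A match is a string in the sequence and not a measured binding site. The 300 bases of the region with most matches, 5 of the 10, are printed from the RefSeq assembly with the matches in capitals; this stretch was chosen after the values were seen, and it was covered over 300 bases in replicate 2 and 196 in replicate 1.
Cyp1a1 (chr9:57696110-57696409, + strand): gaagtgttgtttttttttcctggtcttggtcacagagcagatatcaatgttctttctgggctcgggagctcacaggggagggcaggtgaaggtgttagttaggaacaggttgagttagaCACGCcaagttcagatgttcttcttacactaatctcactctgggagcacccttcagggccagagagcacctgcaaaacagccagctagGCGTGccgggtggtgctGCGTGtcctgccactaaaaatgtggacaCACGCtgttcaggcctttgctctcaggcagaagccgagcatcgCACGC
Cyp1a2, the neighbour of Cyp1a1 and known from liver, had no region within 5 kb, and the nearest lay 10065 bp away.

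Cyp2f2, known from club cells of the lung where it activates naphthalene, had a region 1460 bp from its start, just outside 1 kb. Its length was 828 bp, replicate 2 holding 1531 bp and replicate 1 holding 0. In the replicate 2 list a second region lay within 1 kb (signal 5.65). The remaining 41 genes of the class had none within 5 kb in any list. Counted among the members only, they included all 15 Cyp2c, all 7 Cyp3a, all 5 Cyp2b and all 4 Cyp2a genes. The others were 7 of 8 Cyp2d genes, Cyp1a2, Cyp2e1 and Cyp2g1. Cyp2e1, which oxidises ethanol, was 91201 bp from the nearest region, and Cyp3a11, a major hepatic mouse Cyp3a enzyme, 340276 bp. The median distance over the 44 genes was 158316 bp and the greatest 579401 bp, at Cyp2c39. Cyp2c23 was bare at its start but had 661 bp covered inside its gene body, replicate 2 holding 898 bp and replicate 1 holding 0.

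Of the 7 sterol and bile acid genes, 5 had a region at the start in the replicated, replicate 1 and replicate 2 lists alike. Cyp27a1, the mitochondrial enzyme that hydroxylates the side chain of cholesterol, had 3881 bp, replicate 1 holding 3138 bp and replicate 2 holding 4178 bp. Its start region (chr1:74712126-74715351) had a signal of 42.1. The acetylation went on through the gene, where 10 regions covered 15273 bp, 62.8% of the 24.3 kb body, with 47.5% in replicate 1 and 59.8% in replicate 2. Within the body a region of 6276 bp (chr1:74723619-74729894) had a signal of 25.9. The next gene, 1029 bp beyond the end of Cyp27a1, was Prkag3, a subunit of the AMP-activated kinase known from fast muscle. Prkag3 had 9603 bp acetylated, replicate 1 holding 9276 bp and replicate 2 holding 9621 bp.

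Cyp39a1, which hydroxylates an oxysterol made in brain, had 3673 bp, replicate 1 holding 3398 bp and replicate 2 holding 3774 bp. This region (signal 22.3) also lay over the start of Slc25a27, a mitochondrial carrier gene 211 bp away, and its summit lay in Slc25a27, so it cannot be assigned to Cyp39a1 alone. Cyp51, the lanosterol demethylase of cholesterol synthesis, had 1570 bp, replicate 1 holding 1354 bp and replicate 2 holding 1553 bp (signal 23.2). Cyp46a1, known for turning over cholesterol in neurons, had 1232 bp in 2 regions, replicate 1 holding 1157 bp and replicate 2 holding 1178 bp (signal 9.11). Cyp7b1, which hydroxylates oxysterols, had 1024 bp, replicate 1 holding 637 bp and replicate 2 holding 1047 bp (signal 7.75). The other two genes of the class were bare in all 4 lists. They are the bile acid enzymes Cyp7a1, the rate-limiting hydroxylase in liver, and Cyp8b1, which sets the share of cholic acid. Their nearest regions were 35916 bp and 11340 bp away.

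None of the 6 steroid hormone genes had a region within 5 kb in any list. Cyp11a1, which cleaves the side chain of cholesterol in the first step of steroid synthesis, was 5607 bp from the nearest region, just beyond 5 kb, and had 259 bp covered inside its body, replicate 2 holding 252 bp and replicate 1 holding 0. Cyp17a1 makes androgen precursors, and its nearest region was 16270 bp away. The nearest region of Cyp21a1, the adrenal steroid hydroxylase, lay 31446 bp away. Distances were 76222 bp for Cyp11b1 and 61547 bp for Cyp11b2, the last enzymes of corticosterone and aldosterone synthesis, and 92769 bp for Cyp19a1, the aromatase that makes oestrogens.

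Among the vitamin enzymes a region lay at 2 of the 6 genes, 1 retinoic acid and 1 vitamin D enzyme. Cyp26b1, which breaks down retinoic acid, had 4602 bp in 3 regions, replicate 1 holding 4000 bp and replicate 2 holding 4258 bp. Its signal was low for this length, at 7.85, and the regions lay at and downstream of an internal start of the gene, not at the outermost one printed above. Cyp26a1 and Cyp26c1, which also break down retinoic acid, had no region, and the nearest lay 98495 bp from Cyp26a1 and 110712 bp from Cyp26c1. Cyp2r1, the hepatic enzyme that makes the circulating form of vitamin D, had 1206 bp, replicate 1 holding 1074 bp and replicate 2 holding 1115 bp (signal 6.89). The kidney enzyme Cyp27b1, which makes the active hormone, was 5475 bp from the nearest region, and Cyp24a1, which inactivates it, 13985 bp.

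The vessel class was Cyp1b1, expressed in pericytes and other mesenchymal cells, and the 8 Cyp2j genes, epoxygenases of arachidonic acid whose products widen vessels. Cyp2j9 had 2360 bp, replicate 1 holding 1987 bp and replicate 2 holding 2256 bp (signal 14.3). Cyp2j6 had 1365 bp, replicate 1 holding 946 bp and replicate 2 holding 1313 bp (signal 11.1). The other 6, Cyp2j5, Cyp2j7, Cyp2j8, Cyp2j11, Cyp2j12 and Cyp2j13, had no region within 5 kb in any list. Cyp1b1 passed only by 1 region of 255 bp, 672 bp away (signal 4.07), in neither single-replicate list; replicate 2 had 568 bp inside its body.

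In the fatty acid class and the remaining members 10 of 22 genes (45.5%) had a region within 1 kb, against 62.1% of all genes. They were 7 of 18 fatty acid genes and 3 of 4 others. In each single-replicate list 8 of the 22 had one (59.8% and 62.0% of all genes). In both lists 7 had one (59.5% of all genes). Cyp4f13, of the family that hydroxylates the end of fatty acid chains, had 2009 bp, replicate 1 holding 1908 bp and replicate 2 holding 2031 bp (signal 32.6). Cyp2u1, a hydroxylase of long-chain fatty acids, had 1327 bp, replicate 1 holding 1282 bp and replicate 2 holding 1296 bp (signal 30.7). These had the highest signals of the class, and at both the single replicates lay close together. Cyp4v3, whose human counterpart CYP4V2 is mutated in a crystalline retinal dystrophy, had 1643 bp, replicate 1 holding 1393 bp and replicate 2 holding 1672 bp (signal 13.6). Cyp4f17 had 1696 bp, replicate 1 holding 1464 bp and replicate 2 holding 1533 bp (signal 13.3). Cyp4f16 had 648 bp, replicate 1 holding 653 bp and replicate 2 holding 577 bp (signal 8.75). Both replicates thus held a region at the starts of these 5 genes.

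The other fatty acid genes with a region rested on 1 replicate near the start. Cyp4b1, known from lung, where it activates plant toxins, had 2436 bp in 5 small regions, replicate 1 holding 739 bp and replicate 2 holding 3358 bp. Its signal was 6.95, and in replicate 1 no region lay within 1 kb. Cyp4f18, which hydroxylates leukotrienes in neutrophils, had 750 bp, replicate 1 holding 500 bp and replicate 2 holding 0 bp (signal 4.46), although replicate 2 had 215 bp inside its body. The 11 bare genes of the class were all 5 Cyp4a members, known as hepatic targets of PPAR-alpha, with 5 Cyp4f genes and Cyp4x1. Cyp4a10 was 124561 bp from the nearest region. Cyp4f39 had 328 bp inside its body, replicate 1 holding 235 bp and replicate 2 holding 319 bp, but no region within 5 kb of a start.

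Cyp20a1, an orphan enzyme with no settled substrate, had the highest signal of all members, 52.5, rank 824 of the 12927 genes with a region within 1 kb. It had 2156 bp, replicate 1 holding 2069 bp and replicate 2 holding 2185 bp. Cyp2t4 had 1454 bp, replicate 1 holding 1239 bp and replicate 2 holding 1493 bp (signal 8.34). Cyp2s1, reported to be inducible by dioxin, had 452 bp at its start with the lowest signal, 2.71, and that region was in neither single-replicate list. Its gene body had 3675 bp covered (25.5%), replicate 1 holding 3084 bp and replicate 2 holding 3026 bp. Cyp2w1, the other orphan, was bare, 5817 bp from the nearest region.

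**Figure D2:**
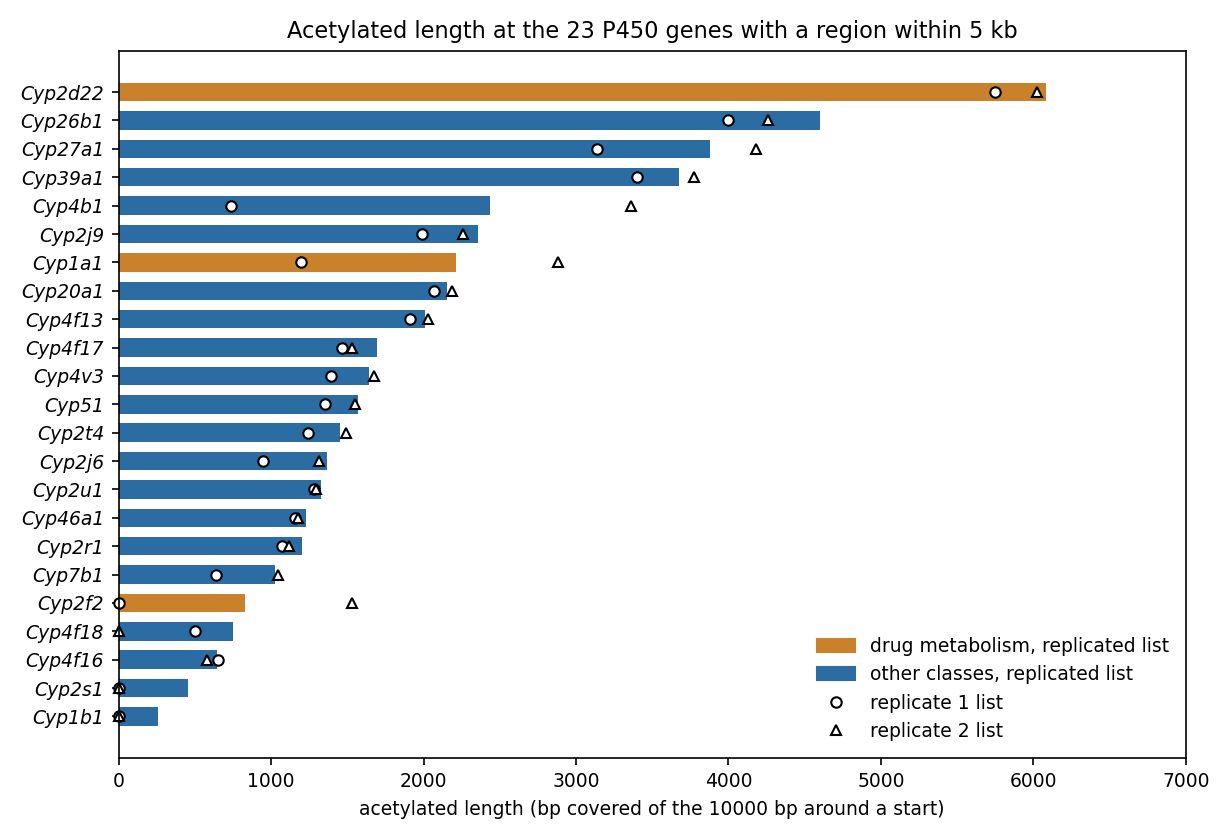
Acetylated length (bp covered of the 10000 bp around a start) for the 23 P450 genes with a region within 5 kb. Bars give the replicated list (drug metabolism genes in orange, other classes in blue), circles the replicate 1 list and triangles the replicate 2 list; Cyp2d22 is longest at 6081 bp, and at Cyp1b1 and Cyp2s1 both single-replicate values are 0.

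The acetylated P450 starts were mostly short and of modest signal. Over the 23 genes with a region within 5 kb the median length was 1570 bp, against 2488 bp (quartiles 1561 and 4337 bp) over the 13693 such protein-coding genes. Only 4 of the members, Cyp2d22, Cyp26b1, Cyp27a1 and Cyp39a1, lay above the median of all genes. The median signal within 1 kb was 10.1 for the P450 genes and 27.8 for all genes with a region there. Cyp20a1, Cyp27a1, Cyp2d22, Cyp4f13 and Cyp2u1 were the 5 above that median. In all, 36 regions lay within 5 kb of a P450 start and 25 within 1 kb, and the 25 had a median width of 1327 bp (255 to 5389 bp). Of the 25, 20 were shared with both replicates (at least 50% of the shorter region overlapping) and 2, those of Cyp1b1 and Cyp2s1, with neither. A region covered the start itself at 17 genes.

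**Figure D3:**
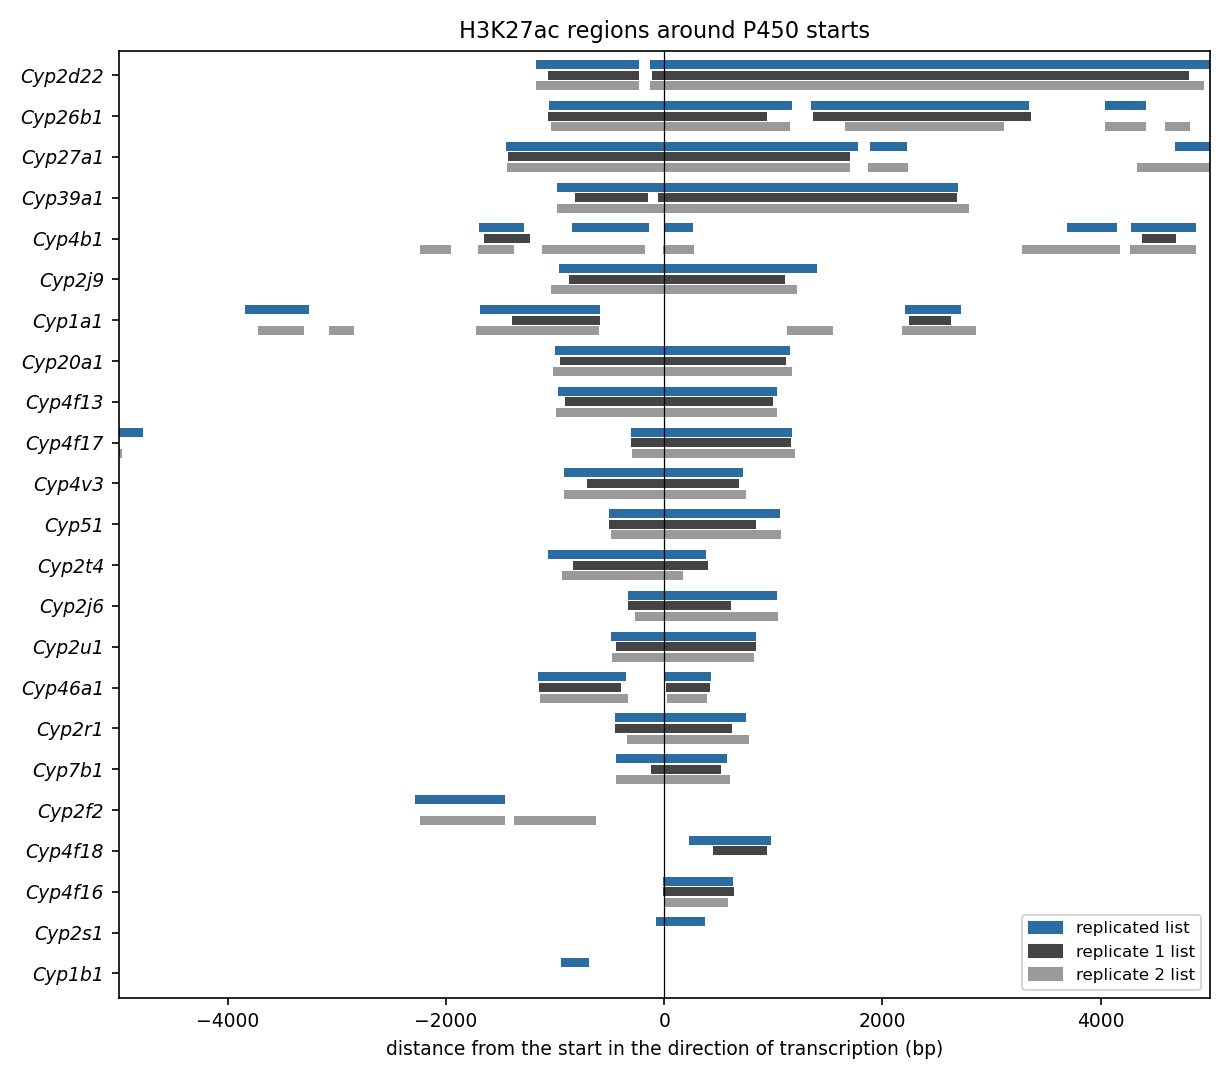
Regions within 5000 bp of the start of the same 23 genes, in the direction of transcription, in the replicated (blue), replicate 1 (dark grey) and replicate 2 (light grey) lists. At 17 genes a region of the replicated list crosses the start, while Cyp1a1 has regions on both sides of it, Cyp2f2 has 1 upstream and Cyp4b1 has 5 small ones.

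Acetylation was sparse in the tandem clusters. Clusters, taken as runs of at least 4 P450 genes with gaps of at most 250 kb, numbered 8 and held 62 members, of which 9 (14.5%) had a region within 1 kb, against 13 of the 32 members outside them (40.6%). Of the 9 protein-coding genes inside the clusters that the rule left out, 5 had one (55.6%), near the 62.1% of all protein-coding genes. These 9 are not all outside the family, since Cyp4a12a, a P450 gene whose symbol ends in a letter, is among them. Regions covered 0.759% of the 4.62 Mb of cluster sequence, against 4.85% of the autosomes, with 7.36 regions per Mb against 34.6. The Cyp2c cluster of 14 genes, which metabolise drugs and arachidonic acid (chr19:39007019-40187333, 1180 kb), held no region in the replicated, replicate 1 or replicate 2 list. The Cyp3a cluster of 4 members (chr5:145773983-146113287) held none either.

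In each cluster with acetylated members they were few. In the Cyp2d cluster the gene was Cyp2d22, at its edge, with 4 regions in the whole cluster. The Cyp2j cluster had 2 regions, at Cyp2j6 and Cyp2j9, over 0.585% of its length. The Cyp4f cluster had most, 17 regions over 2.90% of 495 kb, with 3 of its 8 P450 genes and all 4 of its other coding genes acetylated. Cyp4b1, Cyp2s1 and Cyp2t4 were the acetylated P450 genes of the 3 clusters left, and each was the first or last gene of its cluster.

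**Figure D4:**
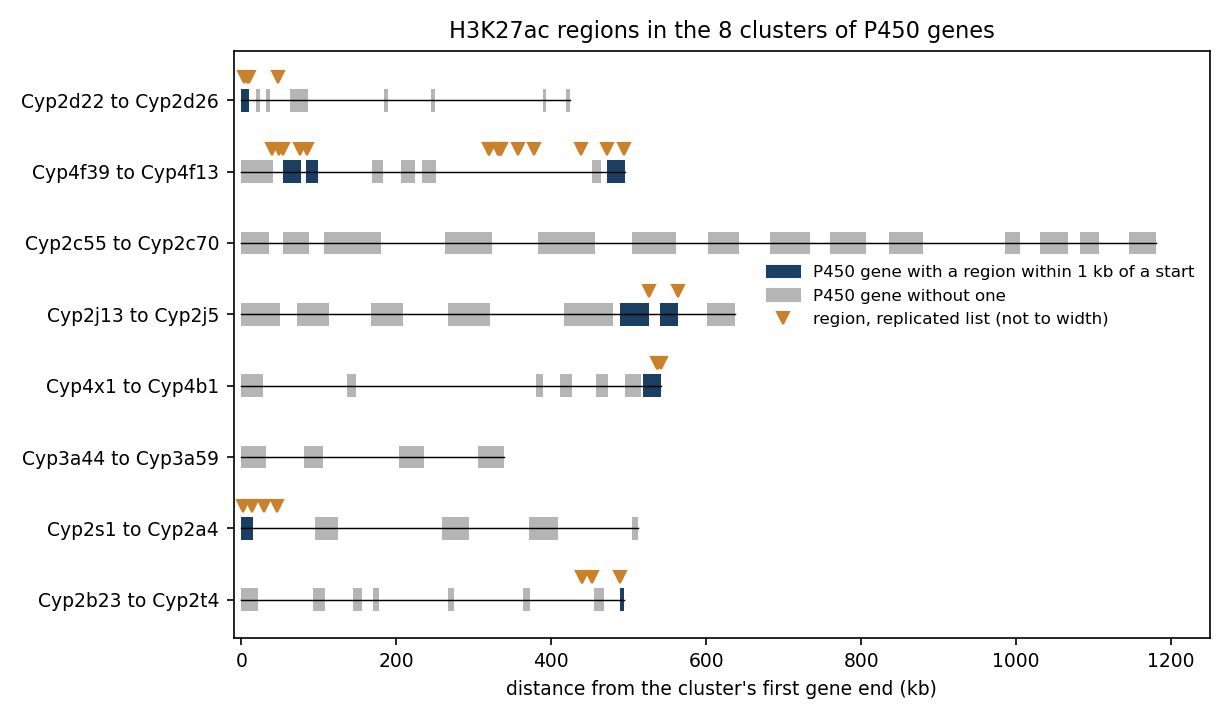
The 8 clusters of P450 genes, each drawn from its first gene end (distance in kb), with genes within 1 kb of a region in dark blue, other P450 genes in grey and regions of the replicated list as triangles not drawn to width. The Cyp2c and Cyp3a clusters carry no triangle, and the Cyp4f cluster carries 17 regions.

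CpG dinucleotides were counted in the 300 bases from 250 before to 50 after the main start, that of the principal transcript in the annotation, which at Cyp1a1 and Cyp26b1 is not where the regions lie. There, members with a region had a median of 9.5 CpG and members without one 2. Over all P450 genes the median was 3, against 13 over all protein-coding genes, where it was 20 for genes with a region and 3 for those without. In each of 4 bins of CpG count the P450 share lay below that of all genes. With 0 to 4 CpG, 7 of 68 P450 genes (10.3%) had a region, against 18.9% of all such genes, and 1 of 43 drug metabolism genes. With 5 to 9, it was 4 of 11 (36.4%), against 50.3%. With 10 to 19, it was 6 of 8 (75.0%), against 81.0%, and with 20 or more 5 of 7 (71.4%), against 90.5%. Genes are not replicates, and no test of these shares was made. The bare members with 10 or more CpG were Cyp24a1, Cyp26a1, Cyp4f39 and Cyp4x1. Members with a region but under 5 CpG were Cyp1a1, Cyp2j9, Cyp2j6, Cyp4f13, Cyp4f18, Cyp4f16 and Cyp2t4.

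Short strings were counted on both strands of the same 300 bases. The TATA box string TATAAA, taken at any position in the 300 bases, was in 1 of 22 members with a region and in 33 of 72 without. The member with a region was Cyp26b1, and its match lay in the stretch printed above, not covered in the replicated, replicate 1 or replicate 2 list. Cyp3a11 was among the 33, and its match lies near the first printed base of the sequence above, not next to the start. Over all protein-coding genes it was in 7.30% with a region, 21.2% without and 12.6% together. The GC box string GGGCGG was in 15 of 22 members with a region and 5 of 72 without, against 62.6% and 19% of all genes with and without one, and 46.1% together. GCGTG was in 11 of 22 and 9 of 72, against 50.4% and 19.2% of all genes with and without a region (38.6% together). For CCAAT it was 11 of 22 and 36 of 72, against 37.5% and 39.2% (38.2% together). CANNTG, which includes CACGTG, was in 15 of 22 and 56 of 72, against 62.8% and 78.0% (68.5% together). CACGTG was in Cyp2j6 and Cyp4v3 and in no member without a region, against 9.77% and 4.63% of all genes (7.82% together). The sterol-response string TCACNCCAC was in 0 of 22 and 2 of 72, against 1.08% and 1.48% (1.24% together).

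The share of unique sequence was lower at P450 starts. Clustered P450 genes are similar to each other, and reads from such sequence may map to several places. The sources used here name neither read length nor how such reads were handled. How reads from the CAST/EiJ alleles of the hybrid were handled is not given either. Of the 32-base words within 1 kb of the main start, a median of 92.7% occurred once in the genome for P450 genes and 88.4% for the drug metabolism class, down to 34.5% at Cyp2a4 and Cyp2a5, against 98.7% for every 20th protein-coding gene (1041 genes). Of P450 genes with at least 90% such words, 19 of 56 (33.9%) had a region, against 586 of 858 sampled genes (68.3%). In the drug metabolism class it was 2 of 20 (10%). Below 90%, it was 3 of 38 P450 genes (7.89%), against 54 of 183 sampled genes (29.5%). Cyp2e1, at 100% unique words, and Cyp1a2, at 95.0%, were bare in all lists. The part of repeated sequence in these counts was not tested beyond this split. The words were those of the reference genome only, and the part of the CAST/EiJ alleles was not tested.

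**Figure D5:**
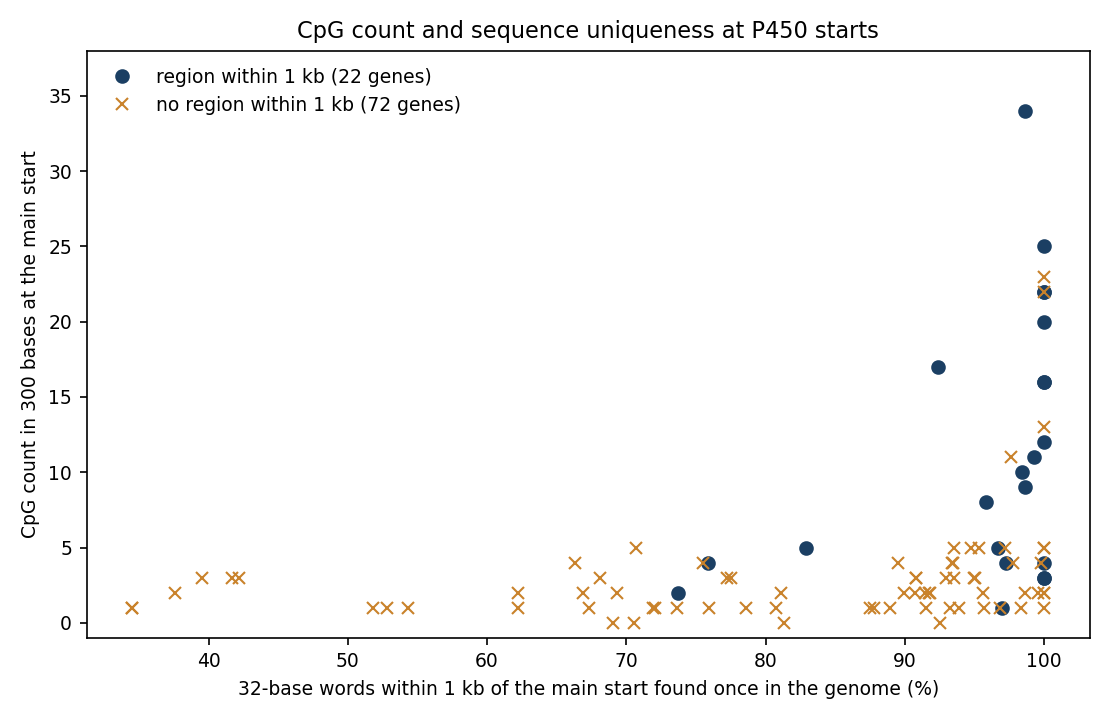
CpG count in 300 bases at the main start (vertical axis) against the percentage of 32-base words within 1 kb that occur once in the genome (horizontal axis), for 22 P450 genes with a region within 1 kb (filled circles) and 72 without (crosses). Most crosses have 5 CpG or fewer at any percentage, and 19 of the 22 circles lie at 90% or more.

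Genes that work with P450 enzymes were mostly acetylated, where 62.1% of all genes had a region. All 8 autosomal electron donors had a region within 1 kb, with a median length of 3541.5 bp. Cyb5r3, the reductase of cytochrome b5, had 7440 bp, replicate 1 holding 6905 bp and replicate 2 holding 7845 bp. Por, the P450 oxidoreductase, had 3900 bp, replicate 1 holding 2982 bp and replicate 2 holding 4076 bp. Cyb5a, cytochrome b5 itself, had 5765 bp. All 17 cholesterol synthesis genes, Cyp51 among them, had a region, with a median of 1570 bp. Of the P450 enzymes with other symbols, Ptgis, the prostacyclin synthase, had 4571 bp and Tbxas1, the thromboxane synthase, 3788 bp.

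Of 21 receptors and factors known to control P450 genes, 14 had a region within 1 kb, near the 62.1% of all protein-coding genes. The median length over the 21 was 4120 bp. The longest were the retinoic acid receptors Rara (9805 bp) and Rarg (8789 bp) and their partner Rxra (6449 bp). Those with none included Nr1i2 and Nr1i3, the drug-sensing receptors PXR and CAR, the bile acid receptor Nr1h4, the hepatocyte factor Hnf4a, the steroidogenic factor Nr5a1, and Ahrr, the repressor of the aryl hydrocarbon receptor. The receptor itself, Ahr, had 4693 bp, replicate 1 holding 2798 bp and replicate 2 holding 4386 bp, and its partner Arnt 5019 bp. Vdr, the vitamin D receptor, had 358 bp and 0 in either single-replicate list.

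Marker lists of cell types were set beside the 62.1% of all protein-coding genes with a region within 1 kb. All 8 fast fibre markers had a region at the start, with a median length of 9731.5 bp, as did all 8 endothelial (7741.5 bp), all 8 smooth muscle and pericyte (4520 bp) and all 8 fibro-adipogenic markers (8067.5 bp). In each single-replicate list 7 of the smooth muscle and pericyte markers had one. Of the macrophage markers 4 of 6 had one (1349 bp), near the share of all genes, and 3 in the replicate 2 list. Of the adipocyte markers 2 of 6 had one (496.5 bp), below that share. Of 12 hepatocyte markers 1 had a region within 1 kb, Apoa2 with 2794 bp (signal 3.66), and 0 had one there in the replicate 2 list. The other 11, Alb and Ttr among them, had 0 bp within 5 kb in the replicated, replicate 1 and replicate 2 lists. Which of these cells carried the acetylated P450 starts was not tested.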

How the data were processed

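H3K27ac ChIP-seq was measured in 4 libraries of mouse gastrocnemius, 2 biological replicates with 2 technical replicates each; technical replicates share 1 alignment per the deposited descriptions and do not count in n, so the spread is that between 2 pools. The authors deposited 4 peak lists on mm10. For every peak the authors deposited a signal on a scale that no source used here explains, and a q-value deposited as −log10. Aligner, peak caller, thresholds and filters: not given in the sources used here. Depth is unknown, so no interval is given. There were 0 columns of other samples.

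Regions were set against all starts of protein-coding transcripts in the basic set of GENCODE vM21 (39627 starts of 20807 autosomal genes; for 87 genes without one, the 5′ end of the gene model). Counts used windows of 1 kb and 5 kb. Classes followed gene families: drug metabolism was Cyp1a, 2a to 2g and 3a. Named in full were all genes with a region within 5 kb and all sterol, steroid, vitamin and vessel genes; other bare genes were counted by subfamily with a few examples. Members, classes, marker and partner lists were chosen with earlier results of these data known. No test over genes was made, since genes are not replicates. Alternatives were another list, a −log10 q of at least 5, the 5′ end alone, summits, 500 bp windows and comprehensive starts. Window counts were tested on simulated data (200 genes, 0 mismatches). Tools were Python 3.11.15, numpy 2.4.6, pandas 2.3.3, numba 0.67.0 and matplotlib 3.10.9. A member of the partner and marker lists and a sequence string are not reported here by name.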

Additional observations from a re-analysis of the deposited data

How the results depend on the processing

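The count of P450 genes with a region within 1 kb was 22 and ran between 19 and 23 over the alternatives. The replicate 1 list alone lost Cyp1b1, Cyp2s1 and Cyp4b1; the replicate 2 list alone lost Cyp1b1, Cyp2s1 and Cyp4f18 and gained Cyp2f2. Of 40 alternatives for counts, 37 stayed within 1.5 times the reported count. The other 3 concern drug metabolism, where 2 genes became 1 with the gene model's 5′ end only, 1 with the summit in place of any base, and 1 with windows of 500 bp; each time Cyp1a1 was lost, since its region lies upstream of the shorter transcript. The share of all protein-coding genes was 59.8% to 62.0% when 1 replicate was left out, 59.7% with the 5′ end alone and 59.7% with summits. The median acetylated length of members with a region within 5 kb was 1318 to 1612.5 bp when 1 replicate was left out. Chosen after seeing the data were 2 more: leaving out regions within 1 kb of another coding gene gave 21 genes, without Cyp39a1, and keeping only genes with at least 90% unique 32-base words gave 19 of 56. No paired analysis was possible because there is 1 group of samples. Depth is unknown, so a start without a region means that none was listed there, not that acetylation is absent.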
